A study of Mus musculus with 6 samples.

Results

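The erythroid globin genes of the adult mouse, Hba-a1, Hba-a2, Hbb-bs and Hbb-bt, and Alas2, which encodes the erythroid form of the first enzyme of heme synthesis, were described in RNA recovered from left ventricles with anti-EZH2 or normal IgG. The genes were chosen by name, and all 5 of 46072 genes in the tables of the libraries were found and were above 0 in every library. In RIP-seq, RNA that comes down with an antibody is sequenced, here with one against EZH2, the methyltransferase subunit of polycomb repressive complex 2. The mice were male and 10 weeks of age, with 2 mice in each group (Sham, 4 h of AngII or 24 h of AngII), and angiotensin II (AngII), a hormone that raises blood pressure and drives cardiac hypertrophy, was delivered by an osmotic minipump under the skin at 1 mg/kg/min. Sham mice received saline by the protocol, while their libraries are labelled untreated. The strain label is C57BL/6 for 4 libraries, C57BL/7 for the AngII 4 h anti-EZH2 library and C57BL/8 for the AngII 24 h anti-EZH2 library. The last digit goes up by 1 from label to label, and whether the mice differed in strain or the labels hold an entry error is not stated in the sources used here. By the protocol both antibodies were used on ventricles of the same group of mice, and the IgG libraries of both AngII groups are labelled C57BL/6. Ventricles were washed in PBS before freezing, and each library was made from a mixture of 2 RIP products. Each group and antibody therefore had 1 library and no replicates, and libraries were compared by ratios, with a test only of the antibodies over the 3 groups together.

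Hemoglobin is a tetramer of alpha and beta chains, each carrying a heme. Its chains are made in red cell precursors, and the youngest red cells in blood, the reticulocytes, still hold globin mRNA after the nucleus is lost. Globin mRNA in a heart is therefore commonly read as a sign of blood held in the tissue. ALAS2 starts heme synthesis in these cells, whereas ALAS1 does so in other tissues. In bulk tissue, fewer cells of a type and less RNA per cell cannot be told apart.

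In GRCm38, the build that the authors call mm10, Hba-a1 (chr11:32283511-32284465) and Hba-a2 (chr11:32296489-32297298) lie on the plus strand with 12023 nt between them. Hbb-bt (chr7:103812524-103813996) and Hbb-bs (chr7:103826534-103828096) lie on the minus strand with 12537 nt between them. Alas2 lies on the plus strand of the X chromosome (chrX:150547375-150570638). The coding sequence of the main transcript has 429 nt in both alpha genes and 444 nt in both beta genes, each in 3 exons. The alpha copies differ at 1 coding base and share a run of 380 nt, and the beta copies differ at 1 coding base and share a run of 416 nt. The only coding stretch that tells the copies apart is shown here as 51 coding bases from GENCODE M21, 5′ to 3′, with the differing base in capitals.
Hba-a1: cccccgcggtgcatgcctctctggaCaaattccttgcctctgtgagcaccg
Hba-a2: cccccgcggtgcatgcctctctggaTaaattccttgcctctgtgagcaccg
Hbb-bs: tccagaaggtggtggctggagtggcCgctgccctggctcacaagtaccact
Hbb-bt: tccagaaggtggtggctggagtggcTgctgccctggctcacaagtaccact
A read from most of either coding sequence fits both copies, so that the split of FPKM within the alpha pair and within the beta pair is uncertain. The main transcripts have 699 nt (Hba-a1), 554 nt (Hba-a2), 628 nt (Hbb-bs) and 703 nt (Hbb-bt), and FPKM are scaled by length. The summed FPKM of a pair therefore still depends on that split, through the difference in length.

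The regions just upstream of the RefSeq starts are shown as a description of sequence, and were not related to the levels in the libraries. RefSeq (GRCm38.p6) held a start for each of the 5 genes, and 250 bases before it were searched on both strands for GATAA (a site of GATA factors), CACCC (a site of KLF factors), CCAAT and TATAA, which are in capitals. No motif overlapped a different motif. The GENCODE genes begin further upstream than these starts, so that 161 bases of the Hba-a1 window, 168 of the Hbb-bs window, 73 of the Hbb-bt window and 42 of the Alas2 window lie within the gene coordinates given above.
Hba-a1 (chr11:32283422-32283671, plus strand): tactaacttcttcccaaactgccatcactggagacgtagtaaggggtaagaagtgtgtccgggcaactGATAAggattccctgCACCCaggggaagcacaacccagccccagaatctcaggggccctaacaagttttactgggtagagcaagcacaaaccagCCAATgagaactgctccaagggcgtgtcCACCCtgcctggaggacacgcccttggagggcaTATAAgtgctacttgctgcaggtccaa
Hbb-bs (chr7:103827929-103828178, minus strand): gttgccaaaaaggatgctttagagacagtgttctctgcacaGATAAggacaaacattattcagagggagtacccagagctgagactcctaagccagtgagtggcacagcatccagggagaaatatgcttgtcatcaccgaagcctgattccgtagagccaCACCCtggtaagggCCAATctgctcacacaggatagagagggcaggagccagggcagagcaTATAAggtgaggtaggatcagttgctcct
Hbb-bt (chr7:103813924-103814173, minus strand): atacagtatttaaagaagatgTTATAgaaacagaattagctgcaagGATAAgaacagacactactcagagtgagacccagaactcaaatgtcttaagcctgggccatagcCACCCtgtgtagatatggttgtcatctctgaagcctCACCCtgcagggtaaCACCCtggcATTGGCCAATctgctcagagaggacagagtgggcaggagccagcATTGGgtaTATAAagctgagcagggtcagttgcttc
Alas2 (chrX:150547167-150547416, plus strand): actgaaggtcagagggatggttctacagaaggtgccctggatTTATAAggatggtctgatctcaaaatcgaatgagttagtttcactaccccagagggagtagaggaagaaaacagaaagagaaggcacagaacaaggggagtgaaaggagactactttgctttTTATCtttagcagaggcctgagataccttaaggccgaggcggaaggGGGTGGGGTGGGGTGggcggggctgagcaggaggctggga
The window of Hba-a2 shares a run of 247 bases with that of Hba-a1 and is not shown. All 4 motifs were found in each of the 4 globin windows and in 0.968% of 32851 windows of the same length. The window of Alas2 held 3 of the 4, and no CCAAT. Alone, GATAA was in 22.6% of all windows, CACCC in 52.0%, CCAAT in 33.8% and TATAA in 22.8%. These matches describe the sequence and were not tested as sites.

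Depth was inferred from the widths of the FPKM intervals of the separate tables, and came to between 4116869 and 8337938 fragments per library. The AngII 24 h anti-EZH2 library stood apart, with a total of 1066359 FPKM against 1713601 to 2166093 in the others and a mitochondrial share of 31.3% against 6.72% to 13.9%. Cardiomyocyte genes were high in all libraries, as for Myl2, the ventricular myosin light chain, with between 2114 and 3934 FPKM. FPKM count fragments scaled by transcript length and by the mapped fragments of the library, and were taken from the table of each library. The table of the whole series is given beside them for the members and for the sum of the cardiomyocyte genes only. Other genes can differ there too, as for Ftl1, with up to 50.7 FPKM in the separate tables and up to 195 FPKM in the series table.

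The 4 globin genes were among the most abundant nuclear mRNAs of every library, with ranks between 13 and 133 among protein-coding genes. Hbb-bs, an adult beta chain gene, had 288 FPKM in Sham with IgG, against 188 after 4 h and 486 after 24 h of AngII, and 222, 187 and 215 FPKM with anti-EZH2 in the same order of groups. Hba-a2, an alpha chain gene, had 286, 185 and 435 FPKM with IgG and 221, 173 and 261 FPKM with anti-EZH2, in the same order. In both genes the AngII 4 h library was the lowest and the AngII 24 h library the highest with IgG, while with anti-EZH2 the AngII 24 h level of Hbb-bs lay between those of Sham and AngII 4 h.

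Hba-a1, the other alpha gene, had 223, 160 and 340 FPKM with IgG and 188, 136 and 224 FPKM with anti-EZH2. Hbb-bt, the other beta gene, had 122, 90.4 and 191 FPKM with IgG and 91.2, 87.0 and 107 FPKM with anti-EZH2. Hbb-bt was the lowest of the globin genes in each library. Its FPKM lay above the upper end of its own deposited interval in all 6 libraries (77.9 to 108 FPKM in Sham IgG), whereas the intervals of the other members held their FPKM. Read as counting error, the relative width of the intervals was that of between 265 and 481 fragments for Hba-a1, Hba-a2 and Hbb-bs and of between 120 and 237 for Hbb-bt, or an SD of between 4.56% and 9.12%. What the deposited intervals cover is not given in the sources used here.

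Alas2 had 2.01, 1.35 and 2.84 FPKM with IgG and 1.35, 3.90 and 3.53 FPKM with anti-EZH2. These rest on the equivalent of between 4.6 and 21.5 fragments, with a relative SD of between 21.5% and 46.6%. The intervals of the 3 IgG libraries overlapped each other, as did those of the 3 anti-EZH2 libraries (0.0927 to 2.61 FPKM in Sham, 2.07 to 5.67 at AngII 4 h, 2.01 to 5.05 at AngII 24 h), so that no difference of Alas2 between groups was detectable at this depth by separate intervals.

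**Figure D1:**
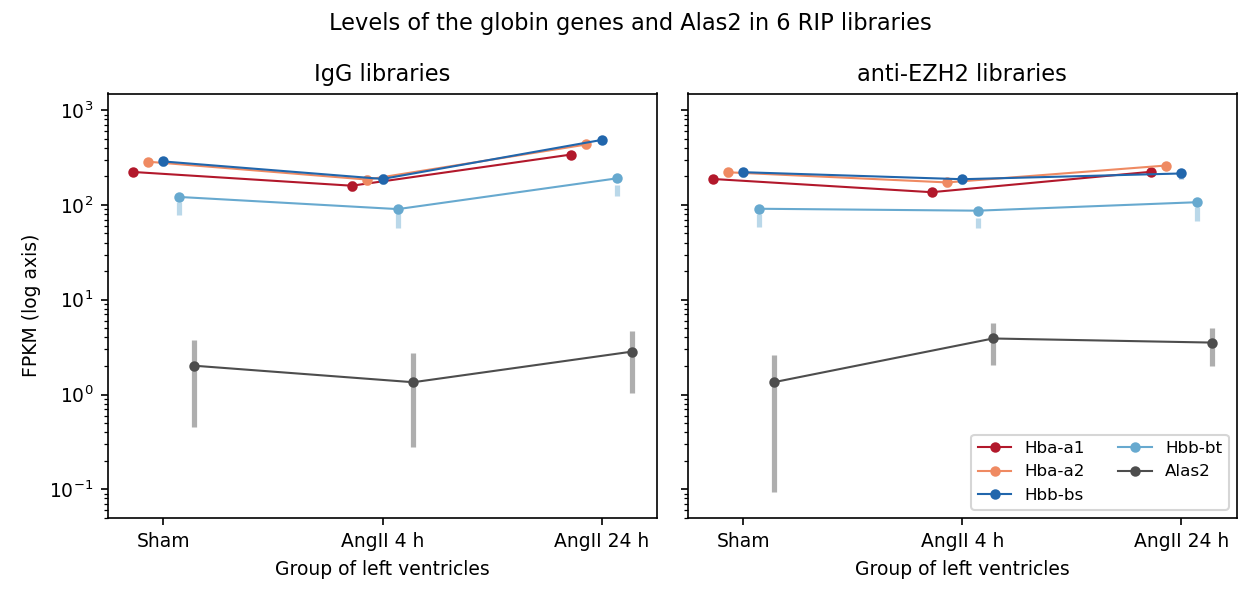
FPKM of the 5 genes (log axis) in Sham, AngII 4 h and AngII 24 h left ventricles, with IgG libraries on the left and anti-EZH2 libraries on the right. Points are the deposited FPKM of 1 library each, joined by lines to follow a gene, and vertical bars are the deposited intervals. The globin genes lie between 87.0 and 486 FPKM and Alas2 between 1.35 and 3.90 FPKM, and the bar of Hbb-bt ends below its point in every library.

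The groups of hearts were compared within each antibody. At AngII 4 h all 5 genes were lower than in Sham with IgG, with ratios of 0.716 for Hba-a1, 0.648 for Hba-a2, 0.654 for Hbb-bs, 0.744 for Hbb-bt and 0.669 for Alas2. The interval of the ratio, propagated from the widths of the 2 deposited intervals and without variation between mice, was 0.554 to 0.758 for Hba-a2 and 0.554 to 0.772 for Hbb-bs. For Alas2 it was 0.216 to 2.07. The median ratio of the members was 0.669, beside 1.15 over 9017 genes tested (above 0 in both libraries and above 1 FPKM in at least 1). None of the 5 was lower by more than 2-fold, which 14.5% of the genes tested were, and 19.6% were higher by more than 2-fold. At a fold of 1.5, 2 members (Hba-a2 and Hbb-bs) were lower, as were 22.1% of genes. The deposited intervals lay apart for 3 members (Hba-a1, Hba-a2 and Hbb-bs), and for 1.89% of genes in this direction.

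With anti-EZH2 the 4 globin genes were also lower at AngII 4 h than in Sham, with 0.725 for Hba-a1 (0.631 to 0.833), 0.781 for Hba-a2 (0.676 to 0.902), 0.843 for Hbb-bs (0.724 to 0.982) and 0.954 for Hbb-bt (0.775 to 1.18). Alas2 had a ratio of 2.89 (1.02 to 8.19) and was the 1 member past 2-fold above, as were 23.3% of 9027 genes, while 12.9% were below. The median of the members was 0.843, beside 1.30 over all genes tested. For 2 members, Hba-a1 and Hba-a2, the deposited intervals lay apart, as for 2.21% of genes in this direction.

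At AngII 24 h all 5 genes were higher than in Sham with IgG, with 1.53 for Hba-a1 (1.33 to 1.75), 1.52 for Hba-a2 (1.32 to 1.75), 1.69 for Hbb-bs (1.46 to 1.96), 1.57 for Hbb-bt (1.28 to 1.94) and 1.41 for Alas2 (0.515 to 3.86). The median was 1.53, beside 1.19 over 9121 genes. No member was past 2-fold, while 22.9% of genes were above and 12.8% below. At a fold of 1.5 the 4 globin genes were above, as were 36.2% of genes. The deposited intervals lay apart for the 4 globin genes and for 4.85% of genes. With anti-EZH2 the same comparison gave 1.19 for Hba-a1, 1.18 for Hba-a2, 0.969 for Hbb-bs, 1.17 for Hbb-bt and 2.62 for Alas2, with a median of 1.18 beside 0.937 over 8311 genes. Alas2 was the 1 member past 2-fold, as were 15.8% of genes, while 23.4% were below, and no member had intervals apart. The interval of Hbb-bs, 0.825 to 1.14, held 1.

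The AngII 24 h library exceeded the AngII 4 h library by more than 2-fold for all 5 members with IgG, compared with 16.4% of 9217 genes above and 13% below, and the deposited intervals lay apart for the 4 globin genes and 1.7% of genes. The ratios were 2.13 for Hba-a1 (1.84 to 2.47), 2.35 for Hba-a2 (2.02 to 2.73), 2.58 for Hbb-bs (2.21 to 3.02), 2.11 for Hbb-bt (1.69 to 2.65) and 2.11 for Alas2 (0.751 to 5.91). The median over all genes tested was 1.04. With anti-EZH2 no member was past 2-fold, while 10.7% of 8714 genes were above and 28.9% below. The alpha genes were past 1.5-fold (16.1% of genes) and had intervals apart (0.598% of genes). The ratios were 1.64 for Hba-a1 (1.43 to 1.88), 1.51 for Hba-a2 (1.31 to 1.74), 1.15 for Hbb-bs (0.986 to 1.34), 1.23 for Hbb-bt (0.998 to 1.51) and 0.905 for Alas2 (0.480 to 1.71). Their median of 1.23 stood beside 0.706 over all genes. The AngII 4 h and AngII 24 h libraries of an antibody are each compared with the same Sham library, so that these comparisons are not independent of each other.

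The antibodies were compared within each group, where the median of the members stayed near that of all genes. In Sham the anti-EZH2/IgG ratio was 0.844 for Hba-a1 (0.729 to 0.976), 0.774 for Hba-a2 (0.668 to 0.897), 0.771 for Hbb-bs (0.657 to 0.903), 0.750 for Hbb-bt (0.597 to 0.944) and 0.670 for Alas2 (0.198 to 2.26). Their median of 0.771 stood beside 0.808 over 8755 genes. No member was past 2-fold in either direction, while 14.3% of genes were above and 22.6% below. The deposited intervals lay apart for 2 members (Hba-a2 and Hbb-bs), as for 4.53% of genes. At AngII 4 h the globin ratios lay between 0.854 (Hba-a1) and 0.993 (Hbb-bs), and the median of the members, 0.963, stood beside 0.929 over 9182 genes. Alas2 had a ratio of 2.89 (1.13 to 7.40), past 2-fold above, as for 12.8% of genes (14.3% were below), from 1.35 FPKM with IgG and 3.90 FPKM with anti-EZH2, whose deposited intervals overlapped.

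At AngII 24 h the globin genes were lower with anti-EZH2, with ratios of 0.658 for Hba-a1 (0.575 to 0.753), 0.600 for Hba-a2 (0.523 to 0.688), 0.443 for Hbb-bs (0.381 to 0.514) and 0.560 for Hbb-bt (0.454 to 0.690), and 1.24 for Alas2 (0.579 to 2.67). The median was 0.600, beside 0.638 over 8794 genes, of which 35.7% were lower by more than 2-fold, as was 1 member (Hbb-bs), and 9.35% higher. At a fold of 1.5 the 4 globin genes were lower, as were 53.1% of genes. The deposited intervals lay apart for the 4 globin genes and for 10.9% of genes. The ratio of Hbb-bs lay below those of both alpha genes with intervals that did not overlap theirs. In the series table its ratio was 0.892, below that of Hba-a1 (1.18) but above that of Hba-a2 (0.772). Over the 3 groups together, with the group as a block in limma on log2(FPKM + 1), a fit added after seeing the data, anti-EZH2 differed from IgG by -0.52 ± 0.38 (SE) for Hbb-bs and 0.31 ± 0.36 for Alas2 on the log2 scale, with adjusted p between 0.732 and 0.769 for the 5 members. The median over 12055 genes was -0.20, and 2 genes passed an adjusted p of 0.05 (759 at an unadjusted p under 0.05).

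**Figure D2:**
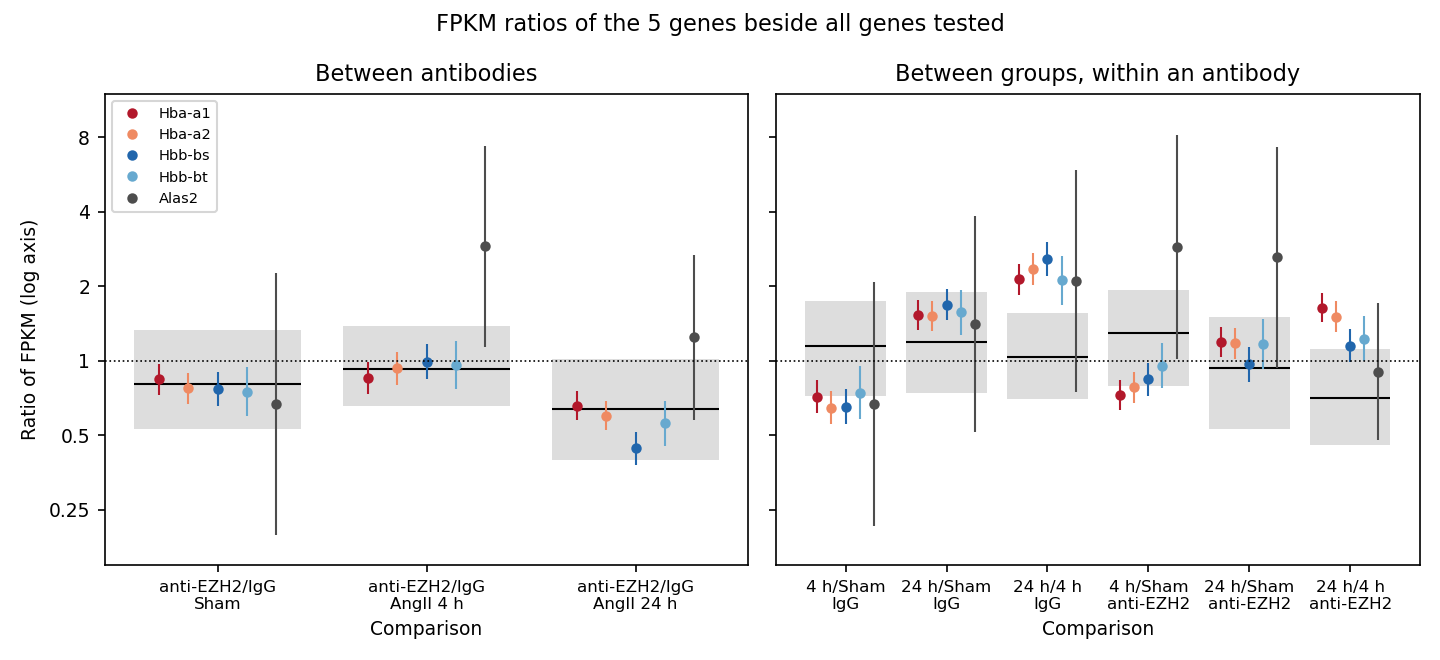
Ratios of FPKM (log axis) of the 5 genes between antibodies (left) and between groups within an antibody (right). Points are ratios of 2 libraries, bars are intervals from the widths of the deposited intervals, the grey boxes span the middle 50% of all genes tested and the black line is their median. Between antibodies the globin genes lie close to the median of all genes, whereas in the ratio of AngII 24 h to AngII 4 h with IgG all 5 lie above the box, between 2.11 and 2.58.

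The anti-EZH2/IgG ratios of the globin genes were also set against RNA of the heart muscle cells in the same library. The summed FPKM of the 4 globin genes was calculated as a percentage of the summed FPKM of 13 cardiomyocyte genes. This measure was chosen after seeing the data. In it the scale of a library cancels, while the split of reads between copies still acts through their transcript lengths. The percentage was 8.96% with IgG (8.43 to 9.48) and 9.14% with anti-EZH2 (8.61 to 9.67) in Sham, and 4.58% (4.28 to 4.87) and 4.72% (4.47 to 4.97) at AngII 4 h. At AngII 24 h it was 11.8% with IgG (11.2 to 12.4) and 9.94% with anti-EZH2 (9.37 to 10.5). The antibodies differed by a factor of 1.02 (0.941 to 1.11) in Sham and 1.03 (0.948 to 1.12) at AngII 4 h, intervals that held 1, and by 0.839 (0.777 to 0.905) at AngII 24 h.

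Between groups, the globin share at AngII 4 h was 0.511 times that in Sham with IgG (0.469 to 0.557) and 0.516 times with anti-EZH2 (0.477 to 0.558). The globin sum was 0.679 and 0.807 times that in Sham, and the cardiomyocyte sum was 1.33 and 1.56 times. The share at AngII 24 h was 1.32 times that in Sham with IgG (1.22 to 1.43) and 1.09 times with anti-EZH2 (1.00 to 1.18). With series-table FPKM the share was 3.55%, 2.15% and 2.56% with IgG and 3.86%, 1.86% and 2.34% with anti-EZH2 in Sham, AngII 4 h and AngII 24 h. It was again lowest at AngII 4 h with both antibodies (0.604 and 0.482 times Sham), but at AngII 24 h it was below Sham, 0.722 times with IgG and 0.605 times with anti-EZH2. The cardiomyocyte sum of that table was 3753, 3649 and 9033 FPKM with IgG and 3554, 3931 and 9597 FPKM with anti-EZH2. By the protocol both antibodies were used on ventricles of the same group of mice, so that the libraries of a group are not biological replicates of each other.

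**Figure D3:**
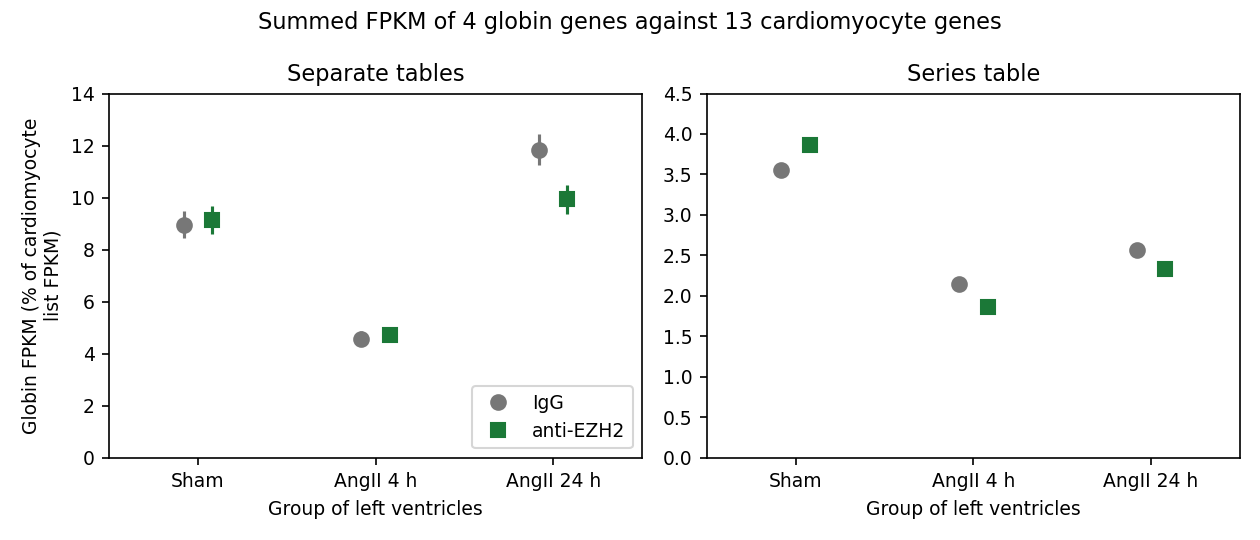
Summed FPKM of Hba-a1, Hba-a2, Hbb-bs and Hbb-bt as a percentage of the summed FPKM of 13 cardiomyocyte genes, by group and antibody, in the separate tables (left, with bars from the interval widths of the globin genes) and in the series table (right). Each point is 1 library. AngII 4 h is lowest in both, at 4.58% and 4.72% on the left and 2.15% and 1.86% on the right, whereas AngII 24 h lies above Sham only on the left.

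The members were then compared with each other. The ratio of the alpha to the beta sum depends on the split between copies through their transcript lengths. With IgG it was 1.24 in Sham (1.11 to 1.40), 1.24 at AngII 4 h (1.09 to 1.41) and 1.15 at AngII 24 h (1.03 to 1.27). With anti-EZH2 it was 1.31 (1.16 to 1.47), 1.13 (1.01 to 1.26) and 1.51 (1.34 to 1.69), in the same order. Ordered by this ratio, neighbouring libraries had overlapping intervals, whereas the AngII 24 h anti-EZH2 library lay above the AngII 24 h IgG and AngII 4 h anti-EZH2 libraries. The alpha sum of the series table was below the beta sum in 5 libraries, between 0.621 and 0.975 times, and was 1.04 times in the AngII 24 h anti-EZH2 library. Within the pairs, Hba-a2 exceeded Hba-a1 in all 6 libraries of the separate tables, by between 1.16 and 1.28 times, but was below it in all 6 of the series table, between 0.512 and 0.788 times. Hbb-bs exceeded Hbb-bt by between 2.01 and 2.54 times in the separate tables and by between 4.83 and 8.58 times in the series table. The order of the alpha copies thus depended on the table.

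The level of every globin gene was higher in the separate tables, by between 2.34 times (Hbb-bs, AngII 24 h anti-EZH2) and 17.6 times (Hba-a2, AngII 4 h anti-EZH2), while Alas2 differed by between 0.986 and 2.95 times. In the series table Hbb-bs had 72.7, 37.2 and 103 FPKM with IgG and 66.2, 37.4 and 92.0 FPKM with anti-EZH2, in the order of Sham, AngII 4 h and AngII 24 h. Hba-a1 had 29.2, 21.8 and 64.2 FPKM with IgG and 39.4, 18.2 and 75.7 FPKM with anti-EZH2. Hba-a2 had between 9.82 FPKM (AngII 4 h anti-EZH2) and 50.2 FPKM (AngII 24 h IgG). Hbb-bt had 8.47, 7.31 and 14.1 FPKM with IgG and 8.97, 7.74 and 17.7 FPKM with anti-EZH2. All 4 were therefore lowest at AngII 4 h and highest at AngII 24 h with both antibodies in that table, and the anti-EZH2 level of Hbb-bs at AngII 24 h, below Sham in the separate tables, was 1.39 times Sham. The cardiomyocyte sum of that table was also highest at AngII 24 h with both antibodies. Alas2 had 0.990, 0.457 and 1.99 FPKM with IgG and 1.02, 2.02 and 3.58 FPKM with anti-EZH2. The median anti-EZH2/IgG ratio of the members there was 1.03 in Sham, 1.00 at AngII 4 h and 1.18 in the AngII 24 h hearts, on the other side of 1 from the separate tables in each group.

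**Figure D4:**
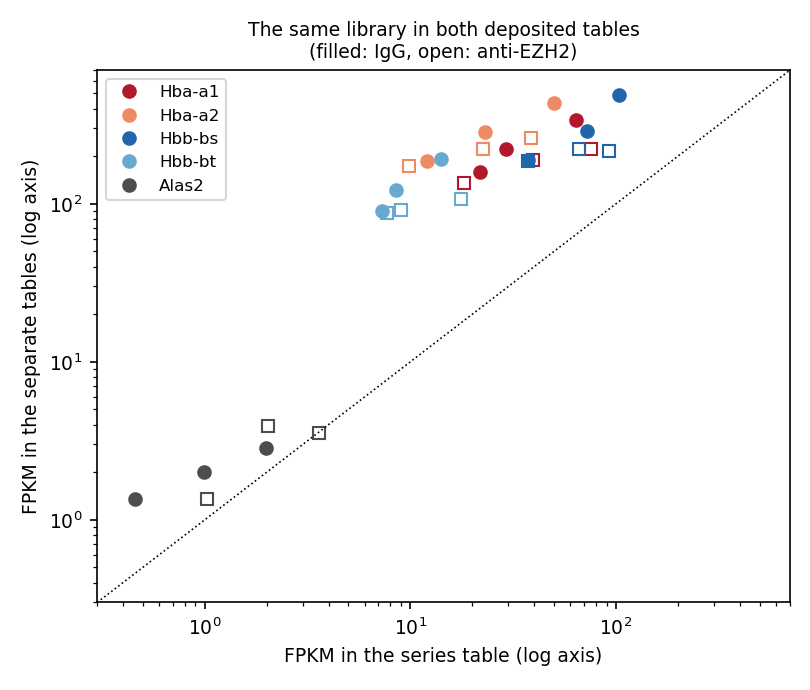
FPKM of the 5 genes in the series table (x axis, log) and in the separate tables (y axis, log), with 1 point per gene and library, filled for IgG and open for anti-EZH2. The dotted line marks equal values. All globin points lie above it, by between 2.34 and 17.6 times, and those of Alas2 between 0.986 and 2.95 times.

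Other genes of red cells were mostly low. Of the other globins, the embryonic genes Hba-x, Hbb-y and Hbb-bh1 were listed at 0 in all libraries, and the theta genes Hbq1a and Hbq1b were above 0 only in Sham anti-EZH2 (0.218 and 0.244 FPKM). Myoglobin (Mb), the oxygen store of muscle, had 1316, 1731 and 1553 FPKM with IgG and 1009, 1583 and 950 FPKM with anti-EZH2, and cytoglobin (Cygb) had between 2.41 and 4.34 FPKM. The order of the groups in Mb was opposite to that of the globin sum at AngII 4 h, where Mb was highest.

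Of 8 erythroid transcription factors, Gata1, Klf1, Nfe2 and Gfi1b were listed at 0 in all libraries and 3 (Zfpm1, Lmo2 and Tal1) were above 0 in all. Of these, Zfpm1, a cofactor of GATA factors, had between 1.17 and 5.56 FPKM, and Lmo2, also known from endothelium, had between 1.64 and 3.73 FPKM. Of 14 erythroid membrane genes, 5 were listed at 0 throughout, Rhag and Epb42 among them. Slc4a1, the anion exchanger of red cells, was at 0 in 4 libraries and had 0.811 FPKM at AngII 4 h and 0.289 FPKM at AngII 24 h with anti-EZH2. The highest gene of that list was Ank1, also expressed in striated muscle, with 88.6, 62.0 and 52.1 FPKM with IgG and 58.0, 44.9 and 81.6 FPKM with anti-EZH2. Of 13 genes of erythroid maturation found, 3 were listed at 0 throughout and 7 were above 0 in all. The highest was Bnip3l, a mitophagy receptor also active in heart muscle, with between 6.05 and 18.7 FPKM. Between AngII 24 h and AngII 4 h with IgG, where all members were past 2-fold, 1 of 8 tested maturation genes was past it above and 2 below, and 0 of 4 membrane genes were past it in either direction, beside 16.4% of all genes above and 13% below.

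The remaining genes of heme synthesis were given by the same list rule. Alas1, the gene of the enzyme of other tissues, had 8.88, 15.3 and 7.82 FPKM with IgG and 9.83, 16.9 and 7.20 FPKM with anti-EZH2, highest at AngII 4 h with both antibodies. Urod had 4.37, 9.48 and 6.34 FPKM with IgG and 2.21, 9.47 and 5.99 FPKM with anti-EZH2. Fech, which inserts the iron, had 4.28, 6.63 and 6.50 FPKM with IgG and 3.18, 6.68 and 3.41 FPKM with anti-EZH2. Uros, which closes the ring, had 6.26, 2.52 and 2.86 FPKM with IgG, where it was highest in Sham, and 2.19, 5.30 and 1.05 FPKM with anti-EZH2, where it was highest at AngII 4 h. At AngII 4 h against Sham, 6 of 7 tested genes of the list were higher by more than 2-fold with anti-EZH2, as was Alas2 and as were 23.3% of all genes. With IgG 1 of 8 was higher and another 1 lower, beside 19.6% and 14.5% of all genes. The median ratio of the list was 2.42 and 1.23, beside 1.30 and 1.15 over all genes.

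Markers of other blood cells were low and are given as levels. Of the platelet list, Pf4, a platelet chemokine also made by macrophages, was above 0 in all libraries, with 5.74, 2.01 and 6.62 FPKM with IgG and 4.09, 3.36 and 2.00 FPKM with anti-EZH2. The summed level of the 10 platelet genes was between 2.38 and 7.65 FPKM. No gene of the neutrophil or lymphocyte lists was above 0 in all libraries. The neutrophil list summed to 0.0406, 3.80 and 0.768 FPKM with IgG and 0.297, 5.19 and 0.615 FPKM with anti-EZH2, and was highest at AngII 4 h. These sums rest on single genes at low levels. Of the AngII 4 h sums, Lcn2 made up 1.87 FPKM with IgG and 1.76 FPKM with anti-EZH2. S100a8 was above 0 only at AngII 4 h with anti-EZH2 (2.21 FPKM). The lymphocyte list summed to between 0 and 2.67 FPKM. The endothelial list summed to 41.4, 30.2 and 26.6 FPKM with IgG and 32.7, 35.0 and 27.2 FPKM with anti-EZH2. The part of these cells in the globin levels was not tested.

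Of the genes that clear hemoglobin and heme, the iron store gene Fth1 had 317, 351 and 378 FPKM with IgG and 234, 318 and 230 FPKM with anti-EZH2. Ftl1, the ferritin light chain gene, had between 25.6 and 50.7 FPKM, and Hmox2, a heme oxygenase, had 14.9 FPKM at AngII 4 h with IgG and between 3.93 and 6.95 FPKM in the others. Between AngII 24 h and AngII 4 h with IgG, 1 of 7 tested genes of this list was past 2-fold above and 2 were below, beside the same 16.4% and 13% of all genes.

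To find the genes with the most similar course over the 6 libraries, the log2 FPKM of each gene was centred and its root mean square difference from the mean of the 5 members was calculated, over 4841 other genes above 1 FPKM in all libraries. The nearest were Mef2d, a muscle transcription factor (0.13), Map4 (0.13), Fbxo11 (0.15), Rnpepl1 (0.15), Phldb1 (0.15), Vimp (0.16), Rps13-ps1 (0.17), Lrp5 (0.17), Fbxw7 (0.17) and Rhoa (0.17), where the median over the genes compared was 0.59. Mef2d had 6.47, 5.43 and 10.9 FPKM with IgG and 6.38, 5.49 and 7.53 FPKM with anti-EZH2. Of the members, the globin genes lay at 0.11 (Hbb-bt) to 0.20 (Hbb-bs) from their mean, and Alas2 at 0.55, nearly the median of all genes. None of the 10 is on the erythroid lists, but most genes of those lists were too low to be compared. Above 0 in all libraries were 6 of 14 membrane genes, 7 of 13 maturation genes and 3 of 8 transcription factors, and the search required above 1 FPKM. Their absence among the 10 is therefore not a result about erythroid genes.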

How the data were processed

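RNA from left ventricles was sequenced in 6 libraries (3 groups, anti-EZH2 or IgG, 2 RIP products mixed into each). The authors mapped reads to mm10 with TopHat2 (version not given in the sources used here) and deposited FPKM values both per library, each with an interval, and in 1 table for the series. The program behind the FPKM is not given in the sources used here. In the separate tables, rows of a gene were summed and 787 values below 0.001 FPKM were set to 0. The file's coordinates matched GENCODE M21 (GRCm38) for all 5 genes.

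Ratios were calculated without a pseudocount on genes above 0 in both libraries and above 1 FPKM in at least 1, and 2-fold was the threshold. Each bound of an interval was taken as 2 SD from its middle. Fragments were inferred from these widths over genes with 1 transcript longer than 2000 nt, less 200 nt, and over the equivalent of 20 fragments. The widths were read as counting error, hold no variation between mice, and what the deposited intervals cover is not given in the sources used here. With 1 library per group and antibody no comparison within a group was tested. The antibodies were tested over the 3 groups, with the group as a block, by limma 3.58.1 (R 4.3.3) on log2(FPKM + 1) of genes above 1 FPKM in any library, with Benjamini-Hochberg adjustment and 2 residual degrees of freedom. The members and the 11 gene lists were chosen with earlier results of these data known, and 112 of 115 listed genes were found. By the rule for named genes, the members, up to 4 genes of each list with the highest mean FPKM and the 10 nearest patterns were named. Genes named beyond it (genes listed at 0, and Slc4a1) were chosen after their values were seen. Some listed genes are not reported here. Alternatives were the series table, division by the median gene or the cardiomyocyte list, a pseudocount of 1, leaving out Alas2, summed copies, a fold of 1.5, intervals apart, and other FPKM minimums. Ratios of AngII 24 h to AngII 4 h, the series table divided by its median gene, the globin share, the limma fit and the profile of the globin genes alone were added after seeing the data. Python 3.11.15, numpy 2.4.6, pandas 2.3.3 and matplotlib 3.10.9 were used, and the procedures were tested on simulated data.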

Additional observations from a re-analysis of the deposited data

Results flagged for a closer look

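Alas2 and Hbb-bs were singled out because a comparison went opposite ways in the antibodies or groups, each with 1 library, and the differences were not tested. The AngII 4 h/Sham ratio of Alas2 was 0.669 with IgG and 2.89 with anti-EZH2, and its AngII 24 h/AngII 4 h ratio was 2.11 with IgG and 0.905 with anti-EZH2. Between antibodies (anti-EZH2/IgG), Alas2 was at 0.670 in the Sham hearts, 2.89 after 4 h and 1.24 after 24 h of AngII. These values rest on the equivalent of between 4.6 and 21.5 fragments. The AngII 24 h/Sham ratio of Hbb-bs was 1.69 with IgG and 0.969 with anti-EZH2. In the series table the last 2 ratios were both above 1 (1.42 and 1.39). The cardiomyocyte sum of that table was higher as well, with 9033 FPKM at AngII 24 h against 3753 FPKM in Sham with IgG. With anti-EZH2 it was 9597 against 3554 FPKM.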

How the results depend on the processing

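Median ratios of the 5 members over 9 comparisons were recomputed. Leaving out Alas2, summing the copies or adding a pseudocount of 1 kept the direction and moved no median by more than 1.5-fold. In the series table the anti-EZH2/IgG median turned from 0.771 to 1.03 in Sham, from 0.963 to 1.00 at AngII 4 h and from 0.600 to 1.18 in the AngII 24 h hearts. After division by that table's median gene it was 1.04 in Sham, 0.917 at AngII 4 h (again below 1) and 1.15 in the AngII 24 h hearts. The series table also moved the anti-EZH2 medians of AngII 24 h/Sham (1.18 to 1.92) and AngII 24 h/AngII 4 h (1.23 to 2.46), and divided by its median gene it gave 0.540 for AngII 4 h/Sham in place of 0.843. Division by the median gene gave an anti-EZH2/IgG median of 1.04 at AngII 4 h and 0.919 at AngII 24 h. Division by the cardiomyocyte list gave 1.05 after 4 h and 0.929 after 24 h, and in the anti-EZH2 libraries 0.537 for AngII 4 h/Sham and 1.87 for AngII 24 h/AngII 4 h. The medians of the 3 comparisons within IgG moved by less than 1.5-fold under every alternative run and kept their direction. The series table divided by the cardiomyocyte list was not among these alternatives. The globin share within IgG did depend on the table. With series-table FPKM its ratio was 0.722 for AngII 24 h/Sham (1.32 in the separate tables) and 1.19 for AngII 24 h/AngII 4 h (2.59). For AngII 4 h/Sham it was 0.604 (0.511). At a fold of 1.5, 2 members were lower at AngII 4 h than in Sham with IgG (22.1% of genes) and 4 were higher at AngII 24 h (36.2%), in place of 0 at 2-fold. A minimum of 5 FPKM moved 4 shares of all genes past 2-fold by more than 1.5-fold, the lowest to 5.51%. Causes of these differences were not tested. With 1 library per group no replicate could be left out, and Alas2 is limited by depth. Between groups of hearts, no paired analysis was possible because the labels give no replicate numbers and each group has its own mice. The antibodies were paired by group of hearts over 3 groups in the added limma fit, in which no member passed (adjusted p between 0.732 and 0.769).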

Other observations

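With the profile of the 4 globin genes alone, chosen after seeing the data, the genes with the nearest course over the 6 libraries were Vimp, Rpl18-ps1 and Mef2d, at root mean square differences of 0.12, 0.15 and 0.15 on the log2 scale.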
